A study of Caenorhabditis elegans with 4 samples.

Results

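The regions described here are the 342 LIN-37 peaks on chromosome IV of Caenorhabditis elegans, out of 1932 peaks in the deposited peak list of the whole series, called the combined list. The rule for membership is the chromosome name alone, and the chromosome itself was picked with earlier results of these data known. The data are LIN-37 ChIP-seq of wild-type N2 hermaphrodite late embryos kept at 20 °C: formaldehyde-fixed chromatin was precipitated with a rabbit polyclonal antibody raised against full-length LIN-37, and the recovered DNA was sequenced. Embryos were bleached out of gravid adults and held for 3.5 hours before freezing. The series holds 2 ChIP libraries and 2 input libraries of sheared chromatin, and the input libraries were not analysed here, so no background level stands beside the peaks. Each ChIP library has a peak list of its own, with 401 peaks on IV in replicate 1 and 326 in replicate 2. Read depth is unknown for every library. The labels do not say whether the replicates came from separate cultures, so any repeat of a peak between them may be technical.

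LIN-37 is a core subunit of the DREAM complex, called DRM in the worm, which joins the retinoblastoma-like protein LIN-35 and the E2F-DP pair EFL-1 and DPL-1 to a MuvB core that also holds the DNA-binding subunit LIN-54. The complex sits mostly at promoters, and in worms it is known for holding down cell cycle genes and for keeping germline genes silent in somatic cells. Worm chromosomes are holocentric, with no single centromere. Their centres are known to be rich in conserved genes and poor in recombination, and their arms carry more repeats and recombine more. Chromosome IV is also known as the home of most piRNA genes, the 21U-RNA loci of the germline. Coordinates below are in WormBase build WS210, written as chromosome, start and end. Peaks were not assigned to genes and no base sequence is shown, because no annotation or sequence of that build was used here.

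LIN-37 peaks were spread over the whole of chromosome IV, and they were densest at its beginning. The 342 peaks made up 17.7% of the combined list and covered 650.5 kb, or 3.73% of the 17.46 Mb between the chromosome start and the last peak end, which stands for the length. The first 25% of the length held 118 peaks (27.0 per Mb), the second 25% held 76 (17.4 per Mb), the third held 73 (16.7 per Mb) and the last held 75 (17.2 per Mb). The last 3 of these parts therefore differed by at most 3 peaks, and the first stood apart. Cut into 10 equal parts, the chromosome had its surplus in the first 2, up to 3.49 Mb. These held 53 and 51 peaks, while each of the other 8 held between 26 and 32. The first 2 parts held 104 of the combined-list peaks (30.4%), 130 of the replicate 1 peaks (32.4%) and 99 of the replicate 2 peaks (30.4%).

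**Figure D1:**
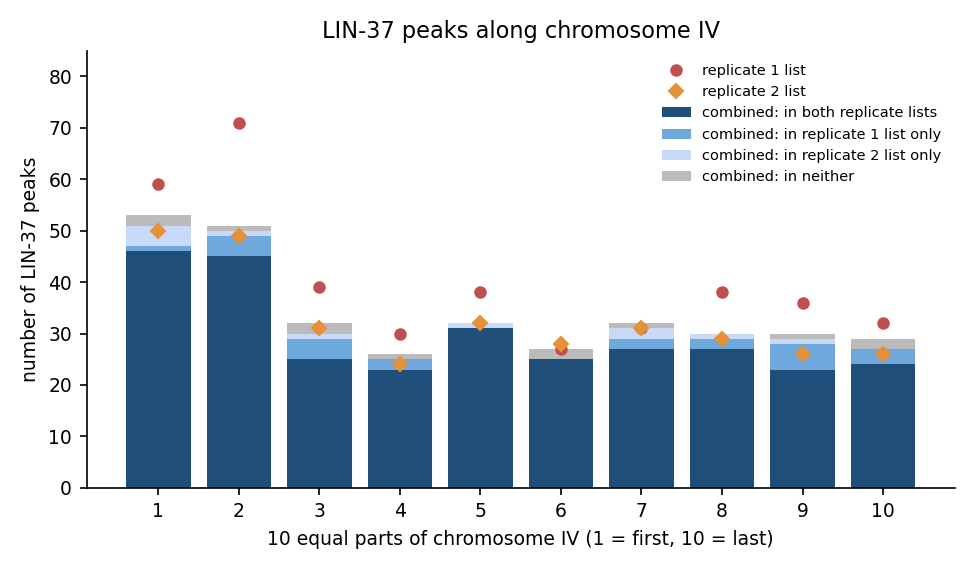
Number of LIN-37 peaks in 10 equal parts of chromosome IV. Stacked bars are combined-list peaks by the replicate lists they overlap, circles are all replicate 1 peaks and diamonds all replicate 2 peaks. The first 2 parts hold 53 and 51 combined-list peaks and the other 8 hold 26 to 32.

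The ends of IV were compared as the first and last 25% of its length, which here stand for the arms. The 118 peaks of the first end against 75 of the last gave a ratio of 1.57 and a share in the first end of 61.1% (95% interval 53.9 to 68.1, exact binomial test, two-sided, adjusted p = 0.0109 over 9 tests). The replicate 1 list held 149 peaks in the first end and 91 in the last (ratio 1.64), and the replicate 2 list held 111 and 66 (ratio 1.68). Both replicates leaned the same way as the combined list. The two-sided exact test counts each peak as independent, and peaks lie in groups, so its p can be too small. An earlier look at these data had already shown this split, so its test is not separate evidence.

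The lean towards the first end was tested against the other autosomes. The ratio was 1.57 on IV, against 0.83 on chromosomes I, II, III and V together, which held 357 peaks in their first 25% and 428 in their last 25%. The odds ratio of IV over these chromosomes was 1.89 (Fisher's exact test, two-sided, adjusted p = 9.80e-04). It was 1.96 in the replicate 1 list and 2.01 in the replicate 2 list. The other autosomes, which were not tested singly, differed among themselves. Chromosome I leaned towards its first end, with 129 and 101 peaks, and V did so with 73 and 61. Chromosomes II and III leaned the other way, with 80 and 123 peaks on II and 75 and 143 on III. The comparison thus pools chromosomes with opposite leans, and the lean of III towards its last end was larger than that of IV towards its first. The test also uses the split of IV that had been seen before, so it gives the size of the difference and is not separate evidence. It too counts each peak as independent, so its p can be too small. The odds ratio was 1.59 with chromosome III left out of the comparison and 2.26 with I left out.

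**Figure D2:**
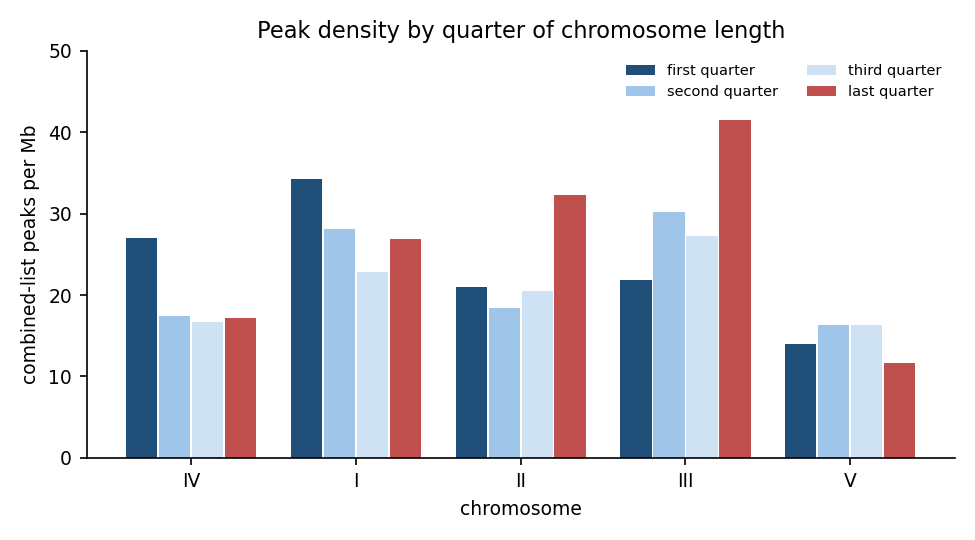
Density of combined-list peaks per Mb in each successive 25% of the length, for chromosome IV and for the other autosomes. The first part of IV holds 27.0 peaks per Mb and its other parts 16.7 to 17.4, while II and III are densest in their last part, with 32.3 and 41.5 peaks per Mb.

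Chromosome IV as a whole had fewer peaks for its length than the other autosomes as a group. Its density was 19.6 peaks per Mb, against 23.0 per Mb on I, II, III and V. The ratio was 0.85 (95% interval 0.76 to 0.96, exact binomial test, two-sided, adjusted p = 0.0217). This test counts each peak as independent, so its p can be too small, and it does not measure the spread between chromosomes. Single chromosomes lay on either side of the density of IV, with 28.0 per Mb on I, 23.0 on II, 30.2 on III and 14.6 on V. The difference depended on which of them it was set against. With I left out the ratio was 0.91 (exact binomial p = 0.145), and with III left out it was 0.93 (exact binomial p = 0.247). With V, the sparsest, left out it was 0.73 (exact binomial p = 9.40e-08), and with II left out it stayed at 0.85. In the replicate 1 list IV had 23.0 peaks per Mb, against 25.3 on the other autosomes (ratio 0.91, exact binomial p = 0.0833), so that list alone did not pass the threshold of 0.05.

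The centre of IV held slightly less than its share of length. In the combined list 149 of 342 peaks lay in the central 50% (43.6%, 38.2 to 49.0, exact binomial test, two-sided, adjusted p = 0.0448). Here too each peak is counted as independent, so the p can be too small. On the other autosomes the share was 47.4%, and the difference did not pass (Fisher's exact test, adjusted p = 0.311). The share was 40.1% in the replicate 1 list (exact binomial p = 9.35e-05) and 45.7% in the replicate 2 list, where it missed the threshold (exact binomial p = 0.135). It also missed it among the peaks of IV found in both replicates (44.9%, exact binomial p = 0.0917).

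Replicate support was high on IV. A combined-list peak was counted as supported when it shared at least 1 bp with a peak in each replicate list. Of the 342 peaks, 296 were supported (86.5%, 82.5 to 90.0), beside 84.2% of the whole combined list and 84.1% on I, II, III and V. The difference from those autosomes did not pass (odds ratio 1.22, Fisher's exact test, two-sided, adjusted p = 0.362). Unsupported peaks numbered 46 on IV and 238 of 1493 on I, II, III and V. Of the 46 on IV, 23 were found by replicate 1 alone and 11 by replicate 2 alone, while 12 matched no replicate peak. This split was not compared with the other autosomes, so it is not read as a trait of IV. With 50% of both lengths required to be shared, 63.2% of the peaks on IV were supported, beside 59.7% on I, II, III and V (Fisher's exact p = 0.270).

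Support on IV followed the deposited score, a number above 50 whose scale the files do not state and which piles up at exactly 3100. Only 5 of the 38 peaks on IV that scored under 100 were supported (13.2%, 4.41 to 28.1), against 48 of 216 on I, II, III and V (22.2%, 16.9 to 28.4). Of the 109 peaks scoring from 100 to under 500, 96 were (88.1%, 80.5 to 93.5), against 381 of 451 on those autosomes (84.5%, 80.8 to 87.7). All 89 peaks scoring from 500 to under 3100 and all 106 scoring 3100 or more were supported, with lower 95% limits of 95.9% and 96.6%, as were all 362 and all 464 such peaks on the other autosomes. Support thus followed the score there too. The unsupported peaks of IV were thus all weak by score, with a median of 85.5 and a highest value of 320.8, against a median of 1381 for the supported ones. They were also narrower, with a median width of 1300 bp against 1722 bp. The combined list and the replicate lists come from the same series, so its score and its support are not separate measures.

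Along the chromosome, support was 87.3% in the first 25% of the length (103 of 118), 88.2% in the second (67 of 76), 90.4% in the third (66 of 73) and 80.0% in the last (60 of 75). Their intervals overlapped. In the central 50% it was 89.3% (133 of 149), against 84.5% (163 of 193) in the ends together, a difference that did not pass (odds ratio 1.53, Fisher's exact test, two-sided, adjusted p = 0.311). Scores varied in the same order. The last 25% had the lowest median score, 296.9, and 18 of its 75 peaks reached 3100 (24.0%). The third 25% had the highest, 1727, and 28 of its 73 peaks reached 3100 (38.4%). The corresponding values were 834.2 and 30.5% in the first 25% and 1093 and 31.6% in the second. The third 25% was also highest on each other autosome. Its median score was 1715 on I, 1474 on II, 1727 on III and 2362 on V. Its share at 3100 was 40.7%, 41.0%, 38.3% and 41.2% in that order. The lowest median score lay in the last 25% on III and V, and in the first on I and II. Support was lowest in the first 25% on I, II and III and in the last on V. These values by part were looked at after the positions had been seen and were not tested. Scores of neighbouring peaks were almost unrelated in rank (Spearman's rho 0.03 over 341 neighbouring pairs). That value concerns adjacent peaks only, and median scores still differed between the parts.

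The share of peaks at the top of the score did not differ detectably between IV and the other autosomes. Of the 342 peaks, 106 scored at least 3100 (31.0%, 26.1 to 36.2), beside 30% of the whole list and 31.1% (28.7 to 33.5) on I, II, III and V (odds ratio of IV 1.00, adjusted p = 1 by Fisher's exact test, two-sided). In the replicate lists, 84 of the 401 peaks on IV in replicate 1 (20.9%) and 72 of the 326 in replicate 2 (22.1%) reached it. On I, II, III and V the shares were 23.5% in replicate 1 and 24.8% in replicate 2, so IV was the lower in both lists without passing the test (Fisher's exact p = 0.290 and 0.317).

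Of these 106 peaks, 104 were tied at exactly 3100, so the score does not order them. The only peaks on IV above that value lay in the first 25% of the chromosome. The peak at IV:2915565-2916934, which was 1370 bp wide, had a combined score of 3228.29, with 2729.15 in replicate 1 and 2111.63 in replicate 2. The peak at IV:1273793-1275284, which was 1492 bp wide, had a combined score of 3126.8, with 1515.15 in replicate 1 and 2614.84 in replicate 2. Both were under 3100 in each replicate, and they are first by the deposited combined score only. On IV as a whole, 70 of the 300 peak pairs matched between the replicates reached 3100 in both lists. On I, II, III and V, 335 of 1284 such pairs did.

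Peak widths on IV depended on the list. The combined list had a median of 1662 bp, with 50% of peaks between 1311 and 2213 bp. The replicate 1 list had a median of 864 bp (middle 50% from 631 to 1240 bp) and the replicate 2 list a median of 1499 bp (1186 to 2024 bp). The lists also differed at the narrow end. On IV, 243 of 401 replicate 1 peaks were under 1000 bp, against 1 peak each in replicate 2 and in the combined list. That single peak lies at the chromosome beginning and lacks a start coordinate. The narrowest peak with a start had 1014 bp in the combined list, 469 bp in replicate 1 and 1007 bp in replicate 2. Read depth and caller settings of the lists are unknown, and their part in this was not tested.

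**Figure D3:**
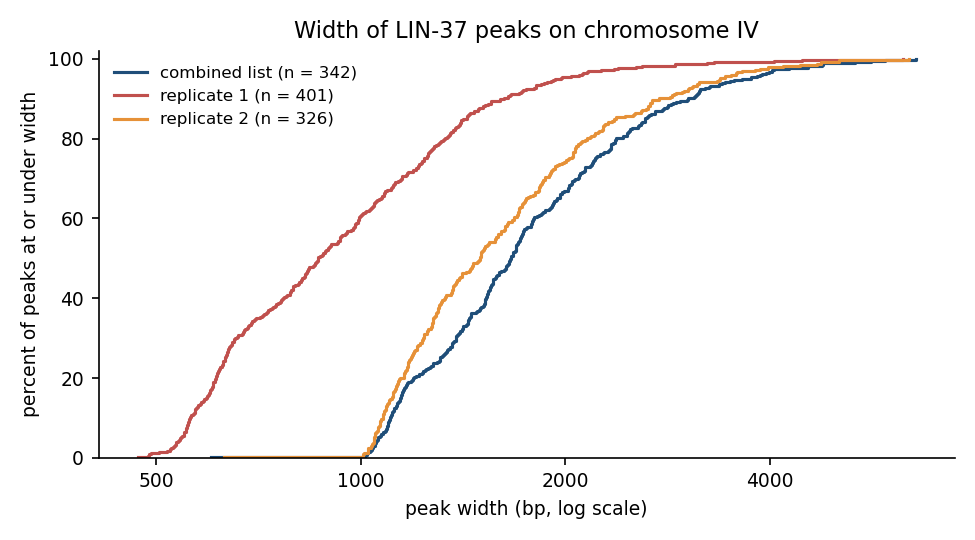
Share of LIN-37 peaks on chromosome IV at or under a given width, on a log axis, for the combined list and each replicate list. Replicate 1 peaks are the narrowest, with a median of 864 bp, while the combined list has a median of 1662 bp and replicate 2 one of 1499 bp.

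The share of wide peaks on IV did not pass the test against the other autosomes. On IV 113 of 342 peaks were wider than 2000 bp (33.0%, 28.1 to 38.3), beside 31.3% of the whole list and 32.0% (29.7 to 34.4) on I, II, III and V. The odds ratio was 1.05 (Fisher's exact test, two-sided, adjusted p = 0.842). The median was 1662 bp on IV and 1664 bp on those autosomes. Wider peaks on IV tended to score higher, with a Spearman's rho of 0.60 across its 342 peaks and of 0.47 across the 236 under 3100. The 106 peaks at 3100 or more had a median width of 2209 bp, against 1184 bp for the 38 peaks under 100. These relations run across peaks of 1 list and carry no test.

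The widest regions of IV were of different kinds. The region at IV:15076179-15082739 was 6561 bp wide and was 1 unbroken peak in every list, 6284 bp wide in replicate 1 and 6401 bp in replicate 2, with a score of 3100 throughout. The region at IV:1948445-1954355, 5911 bp wide, was made of a pair of peaks in each replicate. In replicate 1 these scored 751.24 and 3100, and in replicate 2 they scored 849.08 and 2564.12, so the later peak of the pair was the higher in each. At IV:3046564-3052193 (5630 bp), replicate 1 had a peak scoring 175.87 and another scoring 3100, where replicate 2 had a single peak of 5057 bp scoring 3100. At IV:4175980-4180770 (4791 bp), replicate 1 again had separate peaks, scoring 3100 and 226.69, and replicate 2 had 1 peak of 4760 bp scoring 3100.

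The fourth widest region, at IV:14476096-14481439, did not follow the relation of width and score. Although 5344 bp wide, it had a combined score of only 236.42. In replicate 1 it was a single peak of 4454 bp scoring 349.47, and in replicate 2 a single peak of 5058 bp scoring 1363.65. Both replicates thus held the whole region as 1 peak and placed its centre within 3 bp of each other. No further combined peak lies in the 258 kb that follow it.

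Some combined-list peaks joined replicate 1 peaks. On IV, 21 of 342 combined peaks held 2 or more replicate 1 peaks, 44 in all and at most 3 in 1 region, and their median width was 3635 bp. For replicate 2 there were 3 such peaks. They were not counted on the other autosomes, so no background share stands beside these counts. Another 59 of the 401 replicate 1 peaks on IV overlapped no combined peak. Their median score was 67.6 and the highest was 278.86, at IV:2828252-2830841. The share of replicate 1 peaks that did overlap one was 85.3% on IV, beside 88.6% on I, II, III and V. In replicate 2 that share was 95.1% on IV, beside 95.5%. These differences were not tested. The 16 replicate 2 peaks on IV missing from the combined list had a median score of 80.8. The highest of these, at IV:12730132-12732998, scored 563.1 in replicate 2 and overlapped no peak in either other list. These peaks were picked after their scores were seen.

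Between the replicate lists, 318 of 401 replicate 1 peaks on IV overlapped a replicate 2 peak (79.3%, 75.0 to 83.2), beside 80.1% of all replicate 1 peaks. In the other direction 300 of 326 replicate 2 peaks on IV overlapped a replicate 1 peak (92.0%, 88.5 to 94.7), beside 89.5% of all replicate 2 peaks. On I, II, III and V the shares were 81.7% and 89.7%, so IV lay near the background on both counts. Peaks of IV without a partner had median scores of 81.7 in replicate 1 and 97.1 in replicate 2, against 798.2 and 767.4 for peaks with one. The 83 partnerless replicate 1 peaks were 36 of 149 in the first 25% of IV, 22 of 161 in the central 50% and 25 of 91 in the last 25%. On I, II, III and V they were 94 of 393, 119 of 778 and 88 of 471, in the same order. The 26 partnerless replicate 2 peaks of IV were 7 of 111, 14 of 149 and 5 of 66. On the other autosomes they were 55 of 337, 49 of 693 and 44 of 402. These counts by part were not tested.

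Mutual best overlaps gave 300 matched pairs on IV. Their centres were a median of 57.8 bp apart, and 189 pairs (63.0%) lay within 100 bp, beside a median of 50.3 bp on the other autosomes. The replicate 2 peak was the wider in 293 pairs (97.7%). The median ratio of the widths was 1.50, and in 268 pairs (89.3%) the replicate 1 peak did not reach beyond the replicate 2 peak on either side. Scores ranked the pairs alike, with a Spearman's rho of 0.92, and of 0.83 among the 215 pairs with both scores under 3100. The pairs on I, II, III and V were similar. Their replicate 2 peak was the wider in 98.0%, and the median width ratio was 1.57. Their replicate 1 peak stayed inside its partner in 91.4%, and the values of rho were 0.93 and 0.84. The rank of a pair among the 300, as a percentile, differed between the replicates by a median of 4.67 points, and by more than 25 points in 13 pairs.

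**Figure D4:**
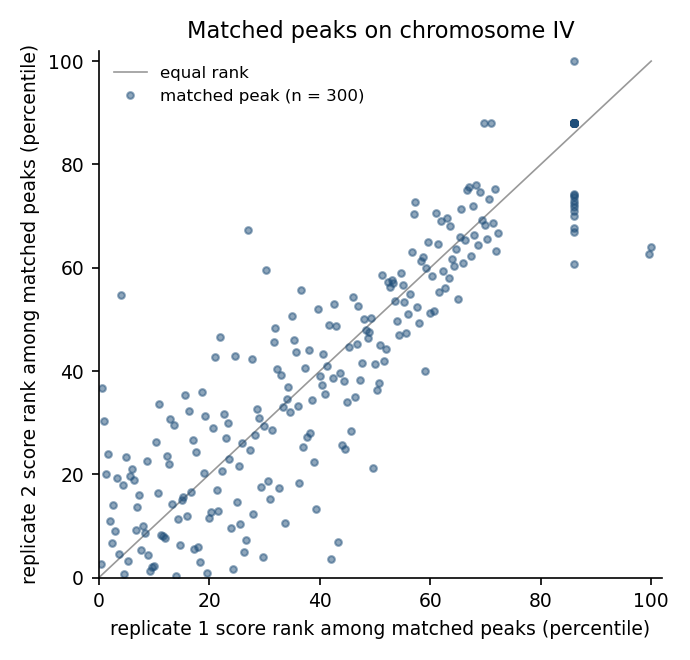
Rank of the deposited score among the 300 matched peaks of chromosome IV, as a percentile, in replicate 1 (x axis) and replicate 2 (y axis); the line marks equal rank. Peaks tied at 3100 share 1 rank in each list, and 13 of the 300 pairs differ by more than 25 points.

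The pairs farthest from equal rank in either direction are named here, chosen after their values had been seen. At IV:12853602-12854330 the replicate 1 peak was 729 bp wide, scored 80.94 and ranked at the 4th percentile, while its replicate 2 partner was 2050 bp wide, scored 937.56 and ranked at percentile 54.7. That replicate 2 peak also covered another replicate 1 peak, at IV:12854469-12855184, which was 716 bp wide and scored 1446.39. The pair was formed with the lower-scoring of these replicate 1 peaks because its overlap was the longer, 729 against 716 bp. At IV:5454120-5455232 the order was turned round: the replicate 1 peak scored 517.76 (percentile 42) and its replicate 2 partner 59.77 (percentile 3.67). The centres of that pair were 26.5 bp apart, so the position repeated where the rank did not.

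Spacing on IV was uneven. The median gap between the end of a peak and the start of the next was 27.4 kb, while the mean gap was 49.3 kb, and 50% of gaps lay between 7.94 and 63.2 kb. The shortest gap was 9 bp, 31 of the 341 gaps were under 1 kb, and 11 were over 200 kb. The median gap was 22.0 kb in the first 25% of the chromosome and 36.0, 34.3 and 25.9 kb in the parts that follow. On the other autosomes the median gap ran from 18.8 kb on III and 22.1 kb on I through 23.9 kb on II to 41.7 kb on V, shorter where the peak density was higher. Gaps under 5 kb made up 20.8% of the gaps on IV (16.6 to 25.5), beside 18.8% to 20.3% on the other autosomes. Spacing depends on density and was not tested.

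Peaks closer than 5 kb formed 52 runs on IV, which held 123 peaks (36.0%), and 219 peaks stood alone. Such runs held 35.8% of the peaks on I, 36.8% on II, 34.9% on III and 32.6% on V, so IV lay near the other autosomes. No run on IV was longer than 4 peaks, and 3 runs there, picked for that length after it was seen, reached it. The run at IV:2305329-2318507 spanned 13.2 kb. Its peaks scored 163.42, 2735.13, 2992.3 and 2803.46 in the combined list, and all of them were found in both replicates. The run at IV:2667834-2678472 spanned 10.6 kb, with combined scores of 228.9, 2308.75, 155.71 and 3100, and was likewise found whole in both replicates. In the run at IV:15036281-15051063, the outer peaks scored 3100 and 754.49 and were found in both replicates. The inner peaks, scoring 105.01 and 117.1, were each found in 1 replicate only.

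In windows of 100 kb, IV held 1.95 ± 1.66 peaks (mean and SD over 175 windows). No peak was centred in 36 windows, and 16 windows held 5 or more. The fullest, at IV:2300001-2400000, held 8 peaks, all in both replicates, of which 1 scored 3100. It includes the first of the runs above and held 12 replicate 1 peaks and 8 replicate 2 peaks. The next, at IV:15000001-15100000, held 7 peaks, 5 of them in both replicates and 3 at 3100, among them the widest region of the chromosome. A further 6 windows held 6 peaks each, so the place of the third fullest window is shared. Of the 16 windows with 5 or more peaks, 8 had every peak supported. These windows were chosen for their counts and carry no test.

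The 3 longest stretches of IV without a combined-list peak held at most 1 peak of each replicate list, all scoring under 100. From IV:10285187-10696824, 411.6 kb held 1 replicate 1 peak scoring 76.12 and 1 replicate 2 peak scoring 67.71. The stretch at IV:14119974-14463186, 343.2 kb long, held 1 replicate 1 peak scoring 98.39 and no replicate 2 peak. The stretch at IV:3727214-4030753, 303.5 kb long, held 1 replicate 1 peak scoring 58.32 and no replicate 2 peak. The next in length held more: IV:13500995-13787102 held 2 replicate 1 peaks and no replicate 2 peak, and IV:4806674-5090784 held 1 replicate 1 peak and 4 replicate 2 peaks scoring up to 117.23. Whether these stretches can be mapped uniquely was not tested.

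Outside the supported set, the highest combined scores on IV belonged to peaks missing from 1 library. The peak at IV:1054368-1057456 had 3089 bp and a combined score of 320.83, while replicate 2 held only a 1455 bp peak scoring 94.19 over its beginning and replicate 1 none. The peak at IV:4470563-4472038 had a combined score of 243.66 and a replicate 2 score of 287.81, and was missing from replicate 1. The peak at IV:5695859-5697295 had a combined score of 216.27 and a replicate 1 score of 255.48, and was missing from replicate 2. A peak missing from a list was not always far from a listed one. Of the 23 combined peaks with no replicate 1 overlap, 4 lay within 1 kb of a replicate 1 peak, and their median distance to the nearest was 5.99 kb. Of the 35 with no replicate 2 overlap, 5 lay within 1 kb of a replicate 2 peak, and their median distance was 19.0 kb. These distances were not measured on the other autosomes, so no background stands beside them. Of the 12 peaks in neither list, 11 scored under 100, and the exception, singled out after its value was seen, lay at IV:16652997-16655191 and scored 184.37.

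The chromosome ends differed in their outermost peaks. The first peak of IV, taken to span positions 1 to 601, had a combined score of 140.37 and a replicate 2 score of 295.62, and replicate 1 had no peak there. The next combined peak began at position 199620. At the far end, the last peak, at IV:17460621-17462161, scored 3100 in all 3 lists. It was 1541 bp wide in the combined list, 1052 bp in replicate 1 and 1447 bp in replicate 2.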

How the data were processed

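Peak lists of the 2 LIN-37 ChIP libraries and the combined list were used as deposited. Build WS210 of WormBase holds the coordinates, which had been carried over from another build, per the file headers. The score of each peak is the authors' deposited score: feature names point to MACS and the source column to MA2C. Not given in the sources used here are the score's scale, aligner, caller version, control, filters and any pooling. The deposited start and end coordinates were read as 1-based, and a missing start as 1. Overlap required 1 bp. A peak was placed by its centre in the first 25%, central 50% or last 25% of length, and length was the highest peak end in the 3 lists.

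Tests were the exact binomial and Fisher's exact test, two-sided (SciPy 1.17.1, Python 3.11.15), with Benjamini-Hochberg adjustment over 9 tests. They were also run on simulated lists. Peaks in those lists were placed independently of each other, so the simulation does not cover grouped peaks. A p not called adjusted is unadjusted. Every test counts each peak as independent, and peaks lie in groups, so any p given here can be too small. Intervals are Clopper-Pearson 95% intervals that cover the counting of peaks only; depth is unknown. Peaks named by coordinate are the widest, those scoring highest, those unsupported with the highest score, the outermost, those holding several replicate peaks, the fullest windows and the longest empty stretches; others were picked after their values were seen, as said beside them. The chromosome, the tests and the rule for naming were chosen with earlier results of these data known. Alternatives are in the closing section.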

Additional observations from a re-analysis of the deposited data

How the results depend on the processing

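Under 69 of 84 alternatives a result held its direction and stayed past or short of 0.05 as before, or, where untested, moved little. The untested median gap moved from 27.4 to 31.4 kb with supported peaks only, by less than the SD of the gaps. The untested count of matched pairs fell from 300 to 248 with 50% of both lengths shared, which was counted as held. The ratio of the first to the last 25% of IV held its direction and stayed past 0.05 under every one of its alternatives. Its odds ratio over the other autosomes did so too. The density ratio of IV (0.85) no longer passed at 0.89 with scores of 100 or more, at 0.88 in the upper 50% by score, and at 0.91 and 0.93 without chromosomes I and III; the replicate lists gave 0.85 to 0.91. The central share (43.6%) no longer passed at 44.4% with scores of 100 or more, at 49.2% in the upper 50% by score, at 44.9% with peaks in both replicate lists, and at 29.5% for the middle of 3 equal parts; the replicate lists gave 40.1% to 45.7%. Against the other autosomes it passed in the replicate 1 list alone (40.1% against 47.4%, Fisher's exact p = 0.0101). Differences of IV from the other autosomes turned round, without passing, for support asked of replicate 2 only (89.8% against 90.1%; 93.3% by replicate 1 only), for the share at 3100 without I or V (31.0% against 30.8% and 30.6%) and for the share over 2000 bp without I (33.0% against 33.5%). The cause was not tested. In the upper 50% by score all peaks of IV were supported, so no odds ratio was computed. Leaving out 1 of the other autosomes at a time was chosen after seeing the data. No paired analysis was possible because no peak list of an input library was analysed here to set against its ChIP library. Depth is unknown, so peaks missed for lack of reads cannot be counted.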
